A study of Rattus norvegicus with 9 samples.

Results

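Prostates of castrated rats kept on dihydrotestosterone (BPH) were compared with prostates of sham-operated rats (sham) on 6 one-colour Agilent rat arrays, 3 per group, out of 9 arrays in the series. The 6 arrays were chosen by their sample titles alone, and every gene with a probe well above background on at least 3 of them was compared, which left 19552 genes. All rats were male Sprague Dawley rats, 6 weeks old when purchased. BPH rats were castrated and received dihydrotestosterone (DHT, 3 mg/kg) under the skin once daily for 4 weeks. Sham rats kept their testes and received corn oil. Both groups were given distilled water by gavage as the vehicle of ghrelin. The remaining 3 arrays (BPH+ghrelin) came from rats castrated and given DHT in the same way, with oral ghrelin (20 nmol/kg daily for 2 weeks) in place of water. These 3 arrays entered the normalization and the estimate of spread in the test. Their values are shown only beside those of the comparison. One legend of the study gives another dose and route for ghrelin. The study kept 8 rats per group, and which rats gave the 3 arrays, and which lobes of the gland were taken, is not given in the sources used here. The comparison therefore holds castration, the exogenous androgen and the oil vehicle together, and these cannot be told apart. The labels number the samples without naming an animal, so p-values measure the spread between these samples.

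The rat prostate consists of paired ventral, lateral and dorsal lobes beside the coagulating gland and the seminal vesicles, and each of these glands secretes its own set of proteins under the control of androgens. Testosterone is converted to DHT, which drives secretory genes in luminal cells. After castration, luminal cells are lost while basal cells and stroma remain, and androgen given later restores growth and secretion. The lateral and dorsal lobes accumulate zinc, for which cells use zinc transporters and the zinc-binding metallothioneins.

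Values are log2 signals after quantile normalization over the 9 arrays, and a difference is the mean of the BPH arrays minus the mean of the sham arrays on that scale. A gene is represented by its brightest probe that passed the filter. A gene was called when its p from limma, adjusted by the Benjamini-Hochberg method over all 19552 genes, was under 0.05. By this rule, 849 genes (4.34%) were called, of which 422 (2.16%) rose and 427 (2.18%) fell in BPH. By the fold criterion of the study, without a test, 690 genes (3.53%) stood 2-fold or more above sham, and 906 (4.63%) stood 2-fold or more below. The 3 BPH and 3 sham arrays did not overlap for 3343 genes (17.1%) that were higher and 2777 genes (14.2%) that were lower in BPH. Over all genes tested, the median difference was 0.04, with 10503 genes above 0 and 9045 below. An unadjusted p from limma under 0.05 was found for 5174 of the 19552 genes. These values over all genes are the background for the counts of each list below. Large falls outnumbered large rises: 100 called genes were at least 4-fold lower in BPH, against 14 that were at least 4-fold higher.

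Single arrays weighed heavily on the number of calls. Leaving out a BPH array gave 583 calls (replicate 1), 119 (replicate 2) or 252 (replicate 3), and leaving out a sham array gave 3069 (replicate 1), 921 (replicate 2) or 159 (replicate 3). BPH replicate 2 lay between the other BPH arrays for 71.2% of probes, and sham replicate 3 lay between the other sham arrays for 73.4%. On sham replicate 2, 61.4% of probes were well above background, against 69.5% to 75.1% on the other arrays. By the scan times in the file headers, all BPH arrays were scanned in 1 session together with BPH+ghrelin replicate 1, while sham replicates 1 and 2 were scanned in another session with BPH+ghrelin replicates 2 and 3, and sham replicate 3 was scanned on its own. No session held both BPH and sham, so scan session and group cannot be told apart. A fit with the session as a fixed term, in which BPH and sham are joined only through the BPH+ghrelin arrays, called 2 genes. With arrays scaled to their 75th percentile in place of quantile normalization, 287 of 897 calls were higher and 610 lower in BPH, a share of 32.0% higher against 49.7%.

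**Figure D1:**
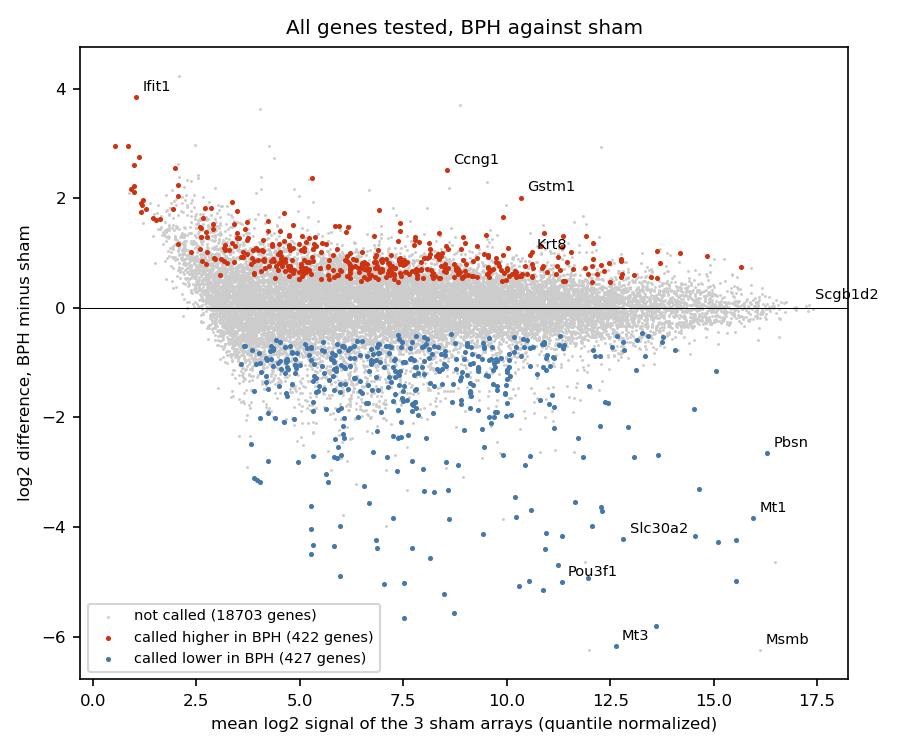
Each point is 1 of 19552 genes, with the mean log2 signal of the 3 sham arrays on the x axis and the log2 difference (BPH minus sham) on the y axis. Genes called higher are red, genes called lower are blue, and genes not called are grey. Mt3 (-6.18) lies lowest among called genes with a symbol.

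As a check of the labelled tissue, the main secretory genes of the ventral lobe were bright on all 6 arrays. Scgb1d2, a subunit of prostatein, the steroid-binding protein of the ventral prostate, read 17.33, 17.26 and 17.33 in sham and 17.33, 17.40 and 17.33 in BPH. Sbp, the spermine binding protein, read 17.22, 17.22 and 17.26 in sham and 17.26 on each BPH array. Hoxb13, a homeobox factor that marks the prostate, read 14.57, 13.71 and 14.24 in sham and 14.50, 14.57 and 14.57 in BPH. The groups overlapped for all 3 genes, which were thus present at high signal on every array. Genes of the seminal vesicle and coagulating gland were also bright in sham, as described below. In bulk tissue, fewer cells of a type and less RNA per cell cannot be told apart, and this holds for every gene described here.

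Among 17 genes of ventral prostate secretions, 2 rose and 0 fell by limma (3 had an unadjusted p under 0.05), and the median difference was 0.04, as over all genes. Probes of close paralogs, such as the Scgb1d, Klk1c, Mup, Svs3 and metallothionein genes, may share transcripts. The kallikrein Klk1 differed by 0.06 ± 0.13 (SE, adjusted p = 0.777) and Andpro, an androgen-regulated secreted protein, by 0.02 (adjusted p = 0.923). The brightest probes take nearly fixed values under quantile normalization. Scaled to the 75th percentile instead, Scgb1d2 differed by -0.74 (adjusted p = 0.0848), Sbp by -0.71 (adjusted p = 0.106) and Klk1 by -0.57 (adjusted p = 0.135), and the median of the list was -0.52. The direction for the bright ventral genes thus depended on the scaling, and none of these 3 was called under either. Mup4, a lipocalin of the major urinary protein family, read 4.21, 4.20 and 4.31 in sham and 5.82, 5.60 and 5.49 in BPH, a 2.63-fold rise (adjusted p = 0.0022). Pigr, the receptor that carries polymeric immunoglobulins into secretions, read 7.54, 8.00 and 7.80 in sham and 8.78, 9.09 and 9.36 in BPH, a 2.46-fold rise (adjusted p = 0.0138). All BPH arrays lay above all sham arrays for both genes. The call of Mup4 held whichever array was left out, while that of Pigr was lost without BPH replicate 2 (adjusted p = 0.0838) or sham replicate 3 (adjusted p = 0.0624).

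Dorsolateral secretions held large differences, most of them not called. Of 10 tested, 8 were at least 2-fold lower (against 4.63% of all genes) and 6 had all BPH arrays below all sham arrays (against 14.2%). By the test, 2 fell (against 2.18%) and 0 rose. The 2 were Pbsn and the metallothionein Mt3, which also counts among the zinc genes. The median difference was -2.31, against 0.04 over all genes. Pbsn encodes probasin, the androgen-regulated lipocalin of the dorsolateral lobes. Its signal was 16.16, 16.41 and 16.30 in sham and 14.11, 13.72 and 13.11 in BPH, a 6.27-fold fall (difference -2.65 ± 0.23 SE, adjusted p = 0.0019). The 3 BPH arrays lay more than 2 log2 units below the lowest sham array, and the call held without any 1 array. Msmb, a small protein secreted into semen, read 16.22, 15.99 and 16.11 in sham but 12.80, 11.98 and 4.79 in BPH. Its difference was -6.25, and with so wide a spread among BPH arrays it was not called (adjusted p = 0.115). Tgm4, the transglutaminase that cross-links proteins of the copulatory plug, read 9.62, 9.13 and 9.49 in sham and 7.93, 7.15 and 4.93 in BPH (difference -2.74, adjusted p = 0.068). In Msmb and Tgm4 all BPH arrays lay below sham, and BPH replicate 3 was the lowest array. The list was not uniform: Wfdc3, a protease inhibitor of the whey acidic protein family, read 16.64 to 16.81 in sham and 16.45 to 16.76 in BPH and differed by -0.08 (adjusted p = 0.695).

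The promoter of Pbsn is shown because probasin is the classical secretory target of androgen and its transcript fell here. The window spans 250 bases before to 50 bases after the start (RefSeq, GRCr8, chrX:45807934-45808233, minus strand), 5′ to 3′, with the androgen response half-site AGAACA, searched on both strands, in capitals.
Pbsn: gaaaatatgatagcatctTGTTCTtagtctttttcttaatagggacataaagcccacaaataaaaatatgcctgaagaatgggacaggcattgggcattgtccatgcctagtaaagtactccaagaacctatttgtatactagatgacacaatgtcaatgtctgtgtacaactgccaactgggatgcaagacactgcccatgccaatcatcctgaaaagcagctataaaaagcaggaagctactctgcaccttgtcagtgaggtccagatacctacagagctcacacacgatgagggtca
The window held 1 match, and 20.7% of 33469 rat promoters of the same length held at least 1.

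The zinc genes included the deepest fall of a called gene, that of Mt3. Of 18 genes for metallothioneins and zinc transporters, 4 fell and 0 rose by the test (against 2.18% and 2.16% of all genes). At least 2-fold lower were 5 (against 4.63%). The 4 that fell were the 3 metallothioneins of the list and Slc30a2, a transporter that moves zinc out of the cytosol into vesicles. Mt1 read 15.85, 16.01 and 15.99 in sham and 13.43, 12.61 and 10.32 in BPH, a 14.2-fold fall (adjusted p = 0.0228). Mt2A read 15.89, 15.16 and 15.54 in sham and 12.92, 12.04 and 8.89 in BPH, a 18.9-fold fall (adjusted p = 0.0389). Mt3 read 12.12, 13.14 and 12.63 in sham and 8.26, 7.29 and 3.81 in BPH, a 72.4-fold fall (adjusted p = 0.0173). Every BPH array lay at least 2 log2 units below every sham array for all 3 metallothioneins, and BPH replicate 3 was the lowest each time. Slc30a2 read 13.00, 12.62 and 12.83 in sham and 9.59, 8.89 and 7.31 in BPH, an 18.7-fold fall (adjusted p = 0.018). These 4 calls were lost without BPH replicate 2 or without sham replicate 3, with adjusted p up to 0.127 (Mt2A without sham replicate 3), and that of Mt2A also without sham replicate 2 (0.0553), while the differences of the 4 genes stayed between -7.08 and -2.93. The other transporters of the list were not called, in either direction. Lower among them were Slc39a8, an importer whose arrays overlapped between groups (difference -1.16, adjusted p = 0.237), and, without overlap, the importers Slc39a6 (-0.68, adjusted p = 0.0751) and Slc39a14 (-0.36, adjusted p = 0.17). Slc39a1, a zinc importer, read 11.65, 11.44 and 11.51 in sham and 11.42, 11.51 and 11.61 in BPH (difference -0.02, adjusted p = 0.932). Slc30a1, an exporter at the cell surface, differed by 0.01 (adjusted p = 0.98), and Slc30a4, another zinc exporter, by 1.31 (adjusted p = 0.0527). The median of the list was -0.11, with differences above 0 in 8 of its 18 members.

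The promoters of the 4 zinc genes that fell are shown because they moved together. Capitals mark the core of the metal response element, written TGCACNC or TGCGCNC and searched on both strands, where overlapping matches run into each other. The windows are those of RefSeq in GRCr8 (chr19:10832926-10833225 for Mt1, chr19:10838659-10838958 for Mt2A and chr19:10856031-10856330 for Mt3, all on the minus strand, and chr5:151843201-151843500 for Slc30a2 on the plus strand).
Mt1: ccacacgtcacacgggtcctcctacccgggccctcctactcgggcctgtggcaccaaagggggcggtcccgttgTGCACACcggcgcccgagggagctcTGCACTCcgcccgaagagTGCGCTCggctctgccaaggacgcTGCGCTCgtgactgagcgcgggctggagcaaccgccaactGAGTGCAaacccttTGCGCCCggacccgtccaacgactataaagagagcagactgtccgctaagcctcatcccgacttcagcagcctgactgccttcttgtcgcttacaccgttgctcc
Mt2A: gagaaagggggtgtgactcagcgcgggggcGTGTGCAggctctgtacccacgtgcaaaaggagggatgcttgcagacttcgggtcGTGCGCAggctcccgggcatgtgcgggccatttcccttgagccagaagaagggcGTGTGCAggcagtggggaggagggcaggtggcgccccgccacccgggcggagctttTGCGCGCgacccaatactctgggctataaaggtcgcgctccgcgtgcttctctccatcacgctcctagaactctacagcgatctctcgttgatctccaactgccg
Mt3: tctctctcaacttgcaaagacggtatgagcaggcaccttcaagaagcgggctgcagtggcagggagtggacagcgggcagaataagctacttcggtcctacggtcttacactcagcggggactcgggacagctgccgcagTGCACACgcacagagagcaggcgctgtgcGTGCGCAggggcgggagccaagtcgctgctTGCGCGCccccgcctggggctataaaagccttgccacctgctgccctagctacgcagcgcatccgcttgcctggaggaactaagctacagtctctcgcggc
Slc30a2: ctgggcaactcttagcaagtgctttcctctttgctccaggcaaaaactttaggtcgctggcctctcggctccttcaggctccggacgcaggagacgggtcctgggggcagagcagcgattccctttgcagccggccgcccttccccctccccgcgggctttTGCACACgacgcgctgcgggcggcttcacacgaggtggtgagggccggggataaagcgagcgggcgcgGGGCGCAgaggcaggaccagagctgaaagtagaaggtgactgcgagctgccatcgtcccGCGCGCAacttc
Mt1 held 6 matches, Mt2A 4, and Mt3 and Slc30a2 3 each. At least 3 matches stood in 1.68% of 33469 promoters of this length and at least 1 in 24.2%. A match describes letters in the window and is no measurement of binding.

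Part of the genes of the seminal vesicle and coagulating gland fell as well. Of 12 tested, 5 fell and 0 rose (against 2.18% and 2.16% of all genes). Of these 12, 9 had a difference below 0 and 3 above, and the median difference was -1.41. Svs4, a major secreted protein of the seminal vesicle, read 15.64, 14.38 and 15.30 in sham and 12.12, 11.39 and 9.02 in BPH, a 19.2-fold fall (adjusted p = 0.0398). Svs3a read 9.53, 7.61 and 9.04 in sham and 3.60, 3.22 and 2.63 in BPH, a 47.7-fold fall (adjusted p = 0.0115), and its neighbour Svs3b read 7.37, 6.60 and 7.12 in sham and 3.13, 2.03 and 0.83 in BPH (adjusted p = 0.0029). Svs3a was well above background on 2 and Svs3b on 1 of the 3 BPH arrays. Neither gene overlapped between groups. Pax2, a transcription factor of the urogenital ducts, fell 1.91-fold (adjusted p = 0.021), and Ceacam4, of the carcinoembryonic antigen family, 3.70-fold (adjusted p = 0.0099). With the normexp background correction the log2 difference was -0.14 for Pax2 (-0.93 here) and -0.42 for Ceacam4 (-1.89 here). Semg1, the semenogelin of the copulatory plug, read 16.69, 16.07 and 16.69 in sham and 14.53, 13.63 and 7.35 in BPH (difference -4.64, adjusted p = 0.172). On the other side, Svs6, another seminal vesicle protein, read 4.53, 3.36 and 4.78 in sham and 6.81, 6.11 and 3.57 in BPH (difference 1.27, adjusted p = 0.338). Aldh1a3, which makes retinoic acid, differed by 1.07 without overlap (adjusted p = 0.158). The summed linear signal of the list was 92190 to 159300 on the sham arrays and 1292 to 29250 on the BPH arrays. How much of the fall in secretory genes goes with the amount of seminal vesicle or coagulating gland in the dissected tissue was not tested. The calls of Svs3b and Ceacam4 held without any 1 array, while those of Svs3a and Svs4 were lost without BPH replicate 2, BPH replicate 3 or sham replicate 3 (adjusted p up to 0.136), as was that of Pax2, which was also lost without BPH replicate 1 (0.051).

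Of 10 genes of the epididymis and vas deferens, 2 fell and 0 rose (median difference -0.26). Cd52, an abundant surface glycoprotein of the epididymis and of lymphocytes, read 14.62, 12.20 and 13.99 in sham and 9.74, 8.90 and 4.74 in BPH, a 56.1-fold fall (adjusted p = 0.042). Teddm1a, an epididymal membrane protein, read 8.22, 8.68 and 8.54 in sham and 5.08, 4.07 and 0.62 in BPH, a 37.3-fold fall (adjusted p = 0.028), with its probe well above background on 2 of the 3 BPH arrays. Both were lower on all BPH arrays, furthest on replicate 3, and both calls were lost without BPH replicate 2 or sham replicate 3 (adjusted p up to 0.139), that of Cd52 also without BPH replicate 3 (0.0557) and that of Teddm1a without sham replicate 2 (0.0501). The summed signal of the list was 7637 to 28700 in sham and 3142 to 3297 in BPH, but Cd52 alone made up most of the sum on each sham array. Also without overlap, but not called, were Lcn12 (-0.71, adjusted p = 0.0558), Adam7 (-0.55, adjusted p = 0.289) and Defb22 (0.48, adjusted p = 0.135). Crisp1, which defines the epididymis, was near the background limit in both groups, at 3.29 to 4.82 in sham and 3.32 to 3.90 in BPH, and differed by -0.43 (adjusted p = 0.469).

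**Figure D2:**
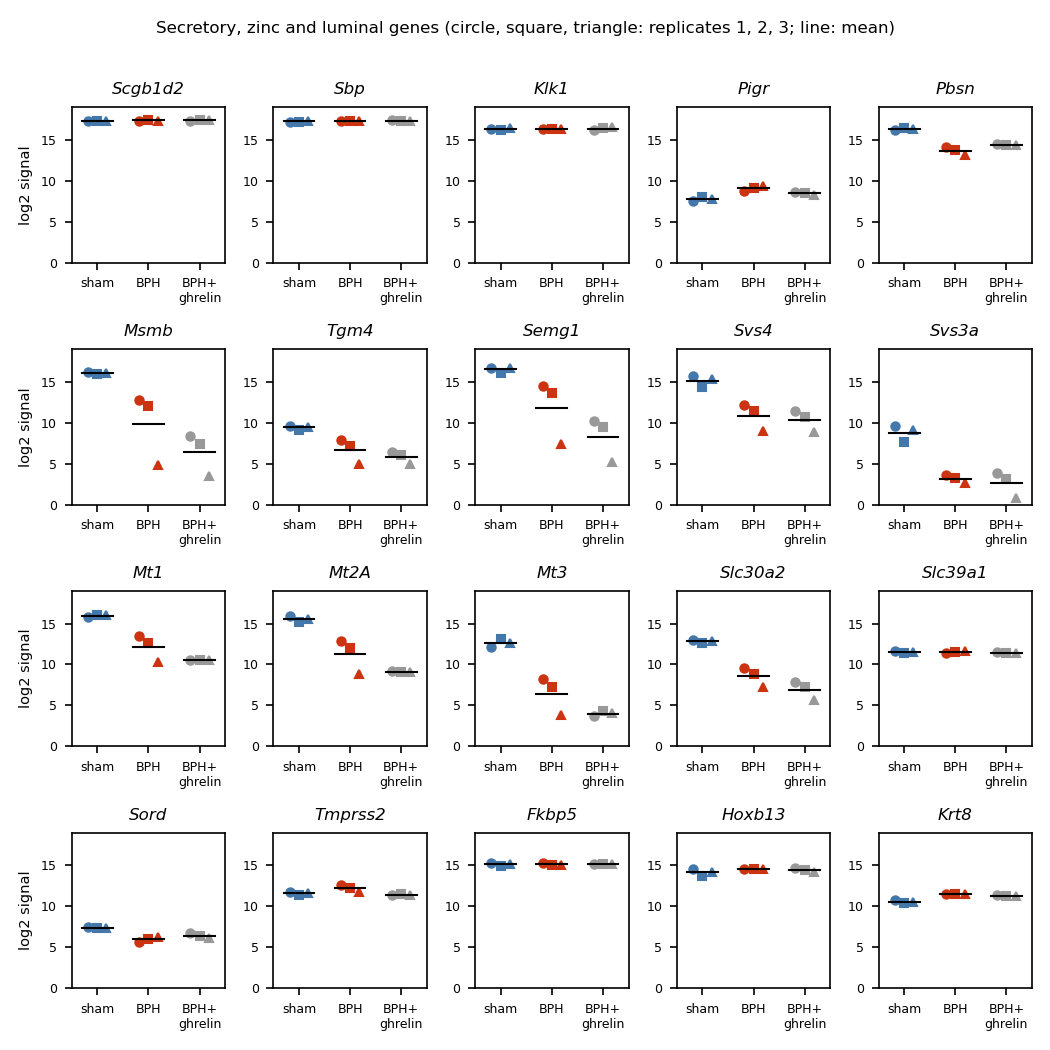
Log2 signals of 20 genes (y axis) in sham, BPH and BPH+ghrelin (x axis), with each replicate as a point and the group mean as a line. The ventral genes Scgb1d2, Sbp and Klk1 lie at the top of the scale, where quantile normalization leaves little room to differ, the dorsolateral, seminal vesicle and zinc genes other than Slc39a1 are lower on all BPH arrays, as is Sord, at 5.71 to 6.23 against 7.32 to 7.43 in sham.

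Of 24 genes of prostate luminal identity, 1 rose and 1 fell, and the median was 0.36. That median was 0.108 without sham replicate 2, 0.20 without BPH replicate 1, 0.539 without sham replicate 1 and 0.048 with arrays scaled to the 75th percentile. Krt8, a keratin of luminal cells, read 10.74, 10.38 and 10.59 in sham and 11.56, 11.53 and 11.49 in BPH, a 1.94-fold rise (adjusted p = 0.0091). All BPH arrays lay above all sham arrays. The call was lost without BPH replicate 2 (adjusted p = 0.0654) or sham replicate 3 (adjusted p = 0.0509).

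Androgen target genes gave calls both ways. Of 33 tested, 26 had a difference above 0, 1 rose and 3 fell, and the median difference was 0.33 (0.202 without sham replicate 2). Beside Pbsn, Sord fell 2.66-fold (adjusted p = 0.0073). It encodes sorbitol dehydrogenase, which makes the fructose of seminal fluid, and read 7.43, 7.32 and 7.42 in sham and 5.71, 5.99 and 6.23 in BPH. Its call was lost without BPH replicate 2 (adjusted p = 0.0505). Mme, the membrane endopeptidase neprilysin, rose 1.93-fold (adjusted p = 0.026). Fkbp5, Tmprss2 and Srd5a2 were not called. Fkbp5, a co-chaperone of steroid receptors and a sensitive androgen target, read 15.34, 14.89 and 15.18 in sham and 15.32, 15.11 and 15.02 in BPH (difference 0.01, adjusted p = 0.968). Tmprss2, a luminal serine protease, read 11.41 to 11.73 in sham and 11.74 to 12.57 in BPH (difference 0.61, adjusted p = 0.121). Srd5a2, the 5-alpha-reductase that makes DHT, differed by -0.81 (adjusted p = 0.0541). The call of Mme was lost without any 1 BPH array or sham replicate 3, with adjusted p up to 0.132. Of 22 genes for steroid receptors and steroid enzymes, limma called 0 (9 had an unadjusted p under 0.05), and the median was 0.07.

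Of the genes known to rise in the prostate after castration, part were called. Of 20 tested, 2 rose and 0 fell (against 2.16% and 2.18% of all genes). All BPH arrays lay above all sham arrays for 8 (against 17.1%), and the median was 0.37 (0.099 without sham replicate 2). Gstm1, a glutathione transferase, read 10.67, 9.92 and 10.44 in sham and 12.67, 12.37 and 12.04 in BPH, a 4.04-fold rise (adjusted p = 0.0045) that held without any 1 array. Hmox1, the heme oxygenase of oxidative stress, rose 1.45-fold (adjusted p = 0.0401, lost without any 1 BPH array or sham replicate 3, up to 0.18). Clu, clusterin, a secreted chaperone and the best known castration-induced transcript, read 12.58, 11.88 and 12.28 in sham and 13.43, 13.54 and 13.67 in BPH. All BPH arrays lay above sham, but the difference of 1.30 was not called (adjusted p = 0.103). Timp1, an inhibitor of matrix proteases, differed by 0.77 (adjusted p = 0.053), and Igfbp3, a carrier of insulin-like growth factors, by -0.26 (adjusted p = 0.409).

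In basal epithelium, 2 of 12 genes rose and 0 fell (against 2.16% and 2.18% of all genes), with a median of 0.32 (0.176 without sham replicate 2). Krt14 read 9.05, 8.53 and 8.76 in sham and 9.64, 9.49 and 9.37 in BPH, a 1.65-fold rise (adjusted p = 0.0447). Krt17 rose 1.93-fold (adjusted p = 0.0355). Both are keratins of basal cells. Tp63, the transcription factor that defines them, read 10.63, 11.58 and 10.98 in sham and 10.44, 10.40 and 10.16 in BPH (difference -0.73, adjusted p = 0.112, and 0.25 by its other probe), and Krt5 overlapped between groups (difference 0.30, adjusted p = 0.457). The calls of Krt14 and Krt17 were lost in 5 and 4 of 6 fits that left out 1 array, with adjusted p up to 0.179.

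**Figure D3:**
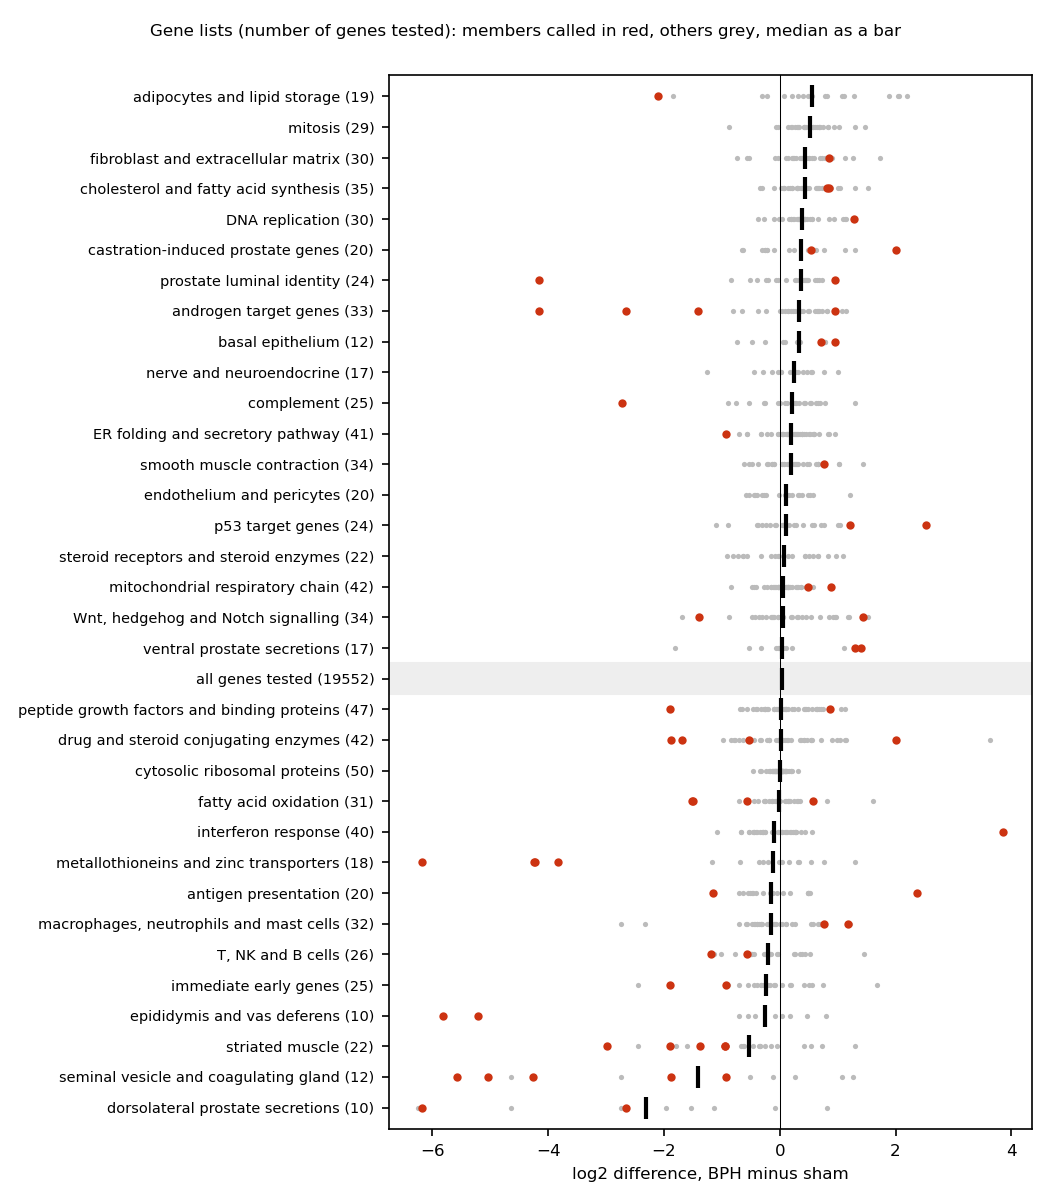
The x axis gives the log2 difference (BPH minus sham) of each gene in 33 lists, with the number of genes tested in brackets, and the bar marks the median. Called genes are red; the lists of dorsolateral secretions (median -2.31) and of the seminal vesicle and coagulating gland (-1.41) lie lowest, while the other medians lie between -0.54 and 0.55. The grey row stands for all genes tested.

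Of 34 genes of smooth muscle contraction, 1 rose and 0 fell, and the median was 0.19. It moved to 0.057 or 0.345 without sham replicate 2 or 1, and to 0.085 or 0.33 without BPH replicate 3 or 1. Rhoa, a small GTPase that maintains contractile tone, rose 1.70-fold (adjusted p = 0.0466). Acta2 and Myh11, the actin and myosin of smooth muscle, differed by 0.15 and -0.11 and overlapped between groups (adjusted p = 0.758 and 0.552). Of 22 striated muscle genes, 0 rose and 5 fell (against 2.16% and 2.18% of all genes). The median was -0.54 (-0.20 without BPH replicate 1, and -0.275 or -0.946 without sham replicate 1 or 2). Pvalb, the calcium buffer parvalbumin, read 7.32, 7.40 and 7.32 in sham and 4.50, 4.29 and 4.31 in BPH, a 7.91-fold fall (adjusted p = 0.00044). Ckm, the muscle creatine kinase, read 7.19, 6.58 and 7.09 in sham and 4.96, 4.97 and 5.23 in BPH, a 3.74-fold fall (adjusted p = 0.0045). Both were even across BPH arrays, and both calls held without any 1 array. With the normexp background correction the log2 difference was -1.37 for Pvalb (-2.98 here) and -0.87 for Ckm (-1.90 here). Tnni2, a troponin of fast fibres, fell 2.59-fold (adjusted p = 0.0078), Mb, myoglobin, 1.92-fold (adjusted p = 0.0321), and Eno3, the muscle enolase, 1.92-fold (adjusted p = 0.0146). Of the 22 genes, 18 had a difference below 0, and the contractile proteins lay on both sides. Myl11, a myosin light chain, read 6.19, 4.24 and 5.77 in sham and 3.88, 3.92 and 3.60 in BPH (difference -1.60, adjusted p = 0.0745). The actin gene Acta1 read 7.56, 7.32 and 7.45 in sham and 7.35, 8.08 and 8.53 in BPH (difference 0.54, adjusted p = 0.225), and the myosin gene Myh2 differed by 0.42 with no overlap (adjusted p = 0.223). The summed signal of this list was 4922 to 5168 in sham and 2120 to 4835 in BPH. The call of Rhoa was lost without any 1 BPH array or sham replicate 3 (adjusted p up to 0.182), and that of Tnni2 without BPH replicate 2 (0.0576). Mb and Eno3 were lost without BPH replicate 2 or sham replicate 3 (up to 0.151), and Mb also without BPH replicate 1 (0.0665).

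Of 30 fibroblast and matrix genes, 1 rose and 0 fell, 25 had a difference above 0, and the median was 0.44 (0.17 without sham replicate 2 and 0.285 without BPH replicate 3). The median deviation per array ran from -0.60 to 0.11 in sham and 0.02 to 0.28 in BPH, with overlap. Thbs2, the matrix protein thrombospondin 2, rose 1.79-fold (adjusted p = 0.0241, lost without BPH replicate 2 at 0.136 or BPH replicate 3 at 0.0721). With the normexp background correction its log2 difference was 0.12, against 0.84 here. The collagen genes Col1a1 and Col1a2 differed by 0.39 and 0.37 and overlapped between groups (adjusted p = 0.572 and 0.379). Of 20 endothelial and pericyte genes, limma called 0 (6 had an unadjusted p under 0.05), with a median of 0.11. The same count was 0 of 17 for nerve and neuroendocrine genes (3 unadjusted, median 0.25, and 0.022 without sham replicate 2).

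Of the cell cycle genes, 1 was called, while 2.16% of all genes were called higher. Of 30 genes of DNA replication, 26 had a difference above 0, 11 had all BPH arrays above all sham arrays (against 17.1% of all genes), 1 rose and 0 fell, and the median was 0.38 (0.206 without BPH replicate 3 and 0.581 without BPH replicate 1). Mcm6, a subunit of the replicative helicase, read 5.19, 5.46 and 5.44 in sham and 6.07, 6.73 and 7.15 in BPH, a 2.44-fold rise (adjusted p = 0.0396). Orc1, of the origin recognition complex, read 4.89, 5.37 and 5.03 in sham and 6.10, 6.22 and 6.41 in BPH (difference 1.15, adjusted p = 0.0526). Mcm2 and Pcna, the sliding clamp of replication, differed by 0.31 and 0.34 (adjusted p = 0.146 and 0.177). The call of Mcm6 was lost without BPH replicate 2, BPH replicate 3, sham replicate 2 or sham replicate 3 (adjusted p up to 0.168). Of 29 genes of mitosis, limma called 0 (1 had an unadjusted p under 0.05), although 26 had a difference above 0 and the median was 0.52. That median was 0.119 without BPH replicate 3, 0.946 without BPH replicate 1 and -0.036 with scan session as a fixed block. The BPH arrays spread widely here. Ccnb1, the cyclin of mitotic entry, read 6.83, 5.51 and 6.53 in sham and 5.95, 7.18 and 7.99 in BPH (difference 0.75, adjusted p = 0.38). Deviations were taken from the mean of the 6 BPH and sham arrays. The median gene lay at -0.61 on the lowest and 1.09 on the highest BPH array. On the sham arrays it lay at -0.59 to -0.01, so the groups overlapped.

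Of 24 p53 target genes, 2 rose and 0 fell, with a median of 0.11. Ccng1, cyclin G1, a direct target of p53, read 8.67, 8.41 and 8.61 in sham and 10.89, 11.07 and 11.29 in BPH. This 5.74-fold rise (difference 2.52 ± 0.32 SE, adjusted p = 0.0072) was even over the BPH arrays and held without any 1 array. Rrm2b, a subunit of ribonucleotide reductase used in DNA repair, rose 2.32-fold (adjusted p = 0.023, lost without any 1 BPH array or sham replicate 3, up to 0.113). Cdkn1a, which encodes the cell cycle inhibitor p21 and is the best known p53 target, overlapped between groups (difference 0.24, adjusted p = 0.386). Mdm2, the ligase that degrades p53, differed by 0.59 (adjusted p = 0.0672), and Gadd45a, a growth arrest gene, by 1.00 (adjusted p = 0.0544).

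Lipid synthesis genes gave 2 calls, with most differences above 0. Of 35 genes for cholesterol and fatty acid synthesis, 32 had a difference above 0, 13 had all BPH arrays above all sham arrays and 0 had all below (against 17.1% and 14.2% of all genes), and the median was 0.44 (0.22 without sham replicate 2). Deviations were again taken from the mean of the 6 BPH and sham arrays. The median gene lay at -0.55 to 0.12 on the sham arrays and 0.10 to 0.24 on the BPH arrays, so the groups overlapped. The test called 2 as higher and 0 as lower. Fdps, which makes farnesyl diphosphate, read 13.86, 13.60 and 13.69 in sham and 14.39, 14.56 and 14.68 in BPH, a 1.77-fold rise (adjusted p = 0.0169). Sc5d, a late enzyme of cholesterol synthesis, read 9.88, 9.64 and 9.73 in sham and 10.26, 10.62 and 10.92 in BPH, a 1.80-fold rise (adjusted p = 0.0383). Hmgcs1, an early enzyme of the pathway, overlapped between groups (difference 0.03, adjusted p = 0.966). Lss, lanosterol synthase, did not overlap (difference 1.01, adjusted p = 0.107). The call of Fdps was lost without BPH replicate 2, BPH replicate 3 or sham replicate 3 (adjusted p up to 0.106), and that of Sc5d without BPH replicate 2, BPH replicate 3, sham replicate 2 or sham replicate 3 (adjusted p up to 0.166).

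Of 31 genes of fatty acid oxidation, 1 rose and 3 fell (median -0.02). Hadhb, of the mitochondrial trifunctional protein, rose 1.49-fold (adjusted p = 0.0348). Acot1, a thioesterase of long-chain acyl-CoA, fell 2.83-fold (adjusted p = 0.0329), and Acads, the short-chain dehydrogenase, 1.48-fold (adjusted p = 0.0454). These 3 calls were lost without BPH replicate 2, BPH replicate 3 or sham replicate 3 (adjusted p up to 0.196), that of Acads also without BPH replicate 1 or sham replicate 2. Of 42 genes of the respiratory chain, 2 rose and 0 fell, and the median was 0.05. These were subunits of ATP synthase, Atp5f1b (1.86-fold, adjusted p = 0.0209) and Atp5f1c (1.40-fold, adjusted p = 0.0408), and both calls were lost without BPH replicate 2, BPH replicate 3 or sham replicate 3 (adjusted p up to 0.183), that of Atp5f1c also without BPH replicate 1 (0.0671). Of 50 cytosolic ribosomal proteins, limma called 0 (3 had an unadjusted p under 0.05), and the median was 0.01, but -0.53 when arrays were scaled to the 75th percentile. Of 41 genes of protein folding in the endoplasmic reticulum and secretion, 1 fell and 0 rose (median 0.20). This was Creb3l1, a transcription factor of secretory cells, with a 1.90-fold fall (adjusted p = 0.023, lost without any 1 BPH array or sham replicate 3, up to 0.119).

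Among 19 genes of adipocytes, 1 fell and 0 rose, and the median was 0.55 (0.355 without sham replicate 1 and 0.927 without sham replicate 2). Cidea, a lipid droplet protein, read 9.06, 10.17 and 9.65 in sham and 7.54, 7.52 and 7.51 in BPH, a 4.30-fold fall (adjusted p = 0.04, lost without each array other than sham replicate 1, up to 0.158). The defining fat gene Adipoq, adiponectin, read 3.28, 12.03 and 10.48 in sham and 11.43, 10.95 and 9.99 in BPH. It was thus far lower on sham replicate 1 than on the other sham and BPH arrays (and at 0.58 on BPH+ghrelin replicate 1), and the summed signal of the list was 8879 to 21010 in sham and 10490 to 16170 in BPH. The part of fat in the tissue in any result was not tested.

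Of 42 drug and steroid conjugating enzymes, 1 rose (Gstm1, above) and 3 fell (against 2.16% and 2.18% of all genes), with a median of 0.03. By the fold criterion alone 5 were higher and 2 lower (against 3.53% and 4.63%). Sult1c2a, a sulfotransferase, read 2.20, 5.56 and 4.36 in sham and 7.99, 7.71 and 7.33 in BPH (difference 3.64, adjusted p = 0.0607). Gsta4, a glutathione transferase that detoxifies lipid aldehydes, read 10.94, 10.65 and 10.83 in sham and 9.22, 9.10 and 9.04 in BPH, a 3.22-fold fall (adjusted p = 0.0021) that held without any 1 array. Sult1b1, a sulfotransferase, fell 3.70-fold (adjusted p = 0.0139, lost without BPH replicate 2 at 0.0809 or sham replicate 3 at 0.0678). Cyp4a8, a fatty acid hydroxylase of the cytochrome P450 family, fell 1.44-fold (adjusted p = 0.0408, lost without each array other than sham replicate 1, up to 0.189), but its mean over both of its probes was higher in BPH by 0.41.

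Immune genes gave calls in both directions, where 2.16% of all genes were called higher and 2.18% lower. Of 40 interferon response genes, 1 rose and 0 fell (median -0.10). This was Ifit1, an antiviral protein induced by interferon, which was not well above background on any sham array (0.66, 1.84 and 0.61) and read 5.34, 4.86 and 4.47 in BPH, at least 3.46-fold higher (adjusted p = 0.0087, and 0.0517 without BPH replicate 2). Isg15, another interferon-induced gene, differed by -0.67 (adjusted p = 0.178). Of 20 genes of antigen presentation, 1 rose and 1 fell (median -0.15). B2m, the light chain of class I molecules, read 15.37, 14.63 and 15.19 in sham and 14.27, 14.01 and 13.47 in BPH, a 2.22-fold fall (adjusted p = 0.044). RT1-Bb, a class II chain, rose 5.20-fold by its brighter probe (adjusted p = 0.0317), but its other probe was lower in BPH by 3.07, so its direction is not settled here. Both calls were lost without BPH replicate 2, BPH replicate 3 or sham replicate 3 (adjusted p up to 0.158).

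Of 26 genes of T, NK and B cells, 0 rose and 2 fell (median -0.20): Cd3d, of the T cell receptor complex, fell 1.49-fold (adjusted p = 0.033), and Gzma, a granule protease of cytotoxic cells, 2.28-fold (adjusted p = 0.0343). Of 32 genes of macrophages, neutrophils and mast cells, 2 rose and 0 fell (median -0.15). Cybb, the oxidase subunit of phagocytes, read 5.79, 5.65 and 5.62 in sham and 6.51, 6.52 and 6.35 in BPH, a 1.71-fold rise (adjusted p = 0.0142), and Adgre1, a surface receptor of macrophages, rose 2.27-fold (adjusted p = 0.0434). Ptprc, the common marker of leukocytes, overlapped between groups (difference 0.04, adjusted p = 0.861). Of the 32 genes, 13 had a difference above 0 and 19 below. Without overlap but not called were S100a9 (-2.75, adjusted p = 0.0944), Ccl2 (-0.71, adjusted p = 0.0783) and, higher, Msr1 (0.70, adjusted p = 0.0558). The summed signal was 1936 to 2940 in sham and 1770 to 1876 in BPH for the lymphocyte list, and 53400 to 57890 in sham and 56260 to 72220 in BPH for the macrophage list. Of 25 complement genes, 0 rose and 1 fell (median 0.22). Cfi, the protease that inactivates complement C3b, read 6.62, 7.73 and 6.99 in sham and 5.04, 4.52 and 3.63 in BPH, a 6.57-fold fall (adjusted p = 0.0116). These 5 calls were lost without BPH replicate 2 (adjusted p up to 0.171) and without sham replicate 3 (up to 0.139), those of Cd3d, Gzma and Adgre1 also without BPH replicate 1 or BPH replicate 3 (up to 0.119), and that of Gzma without sham replicate 2 (0.0504).

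Growth factors and signalling genes showed single changes. Of 47 peptide growth factors and binding proteins, 1 rose and 1 fell (median 0.03). Bmp2, a bone morphogenetic protein, rose 1.82-fold (adjusted p = 0.0202, lost without BPH replicate 2, BPH replicate 3 or sham replicate 3, up to 0.11). Ccn1, a matrix-associated protein of the CCN family and an immediate early gene, read 9.87, 9.70 and 9.75 in sham and 8.24, 7.89 and 7.50 in BPH, a 3.73-fold fall (adjusted p = 0.0037) that held without any 1 array. The insulin-like growth factor Igf1 overlapped between groups (difference -0.26, adjusted p = 0.724). Of 34 genes of Wnt, hedgehog and Notch signalling, 1 rose and 1 fell (median 0.05). Rspo3, a secreted enhancer of Wnt signalling, read 5.87, 6.12 and 5.88 in sham and 4.46, 4.59 and 4.65 in BPH, a 2.62-fold fall (adjusted p = 0.0046) that held without any 1 array. Wnt10a, a Wnt ligand well above background on 1 of the 3 sham arrays, rose 2.71-fold (adjusted p = 0.0473, lost without BPH replicate 2, BPH replicate 3, sham replicate 2 or sham replicate 3, up to 0.181). With the normexp background correction the log2 difference was 0.18 for Wnt10a (1.44 here) and -0.47 for Rspo3 (-1.39 here). Of 25 immediate early genes, 0 rose and 2 fell, Ccn1 and Ier3 (median -0.24). Ier3, a stress-induced survival factor, fell 1.90-fold (adjusted p = 0.0348, lost without any 1 BPH array or sham replicate 3, up to 0.154). Fos, the prototype of the class, read 10.97, 7.95 and 10.37 in sham and 7.31, 7.23 and 7.42 in BPH, and with the spread of the sham arrays it was not called (difference -2.45, adjusted p = 0.0742).

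**Figure D4:**
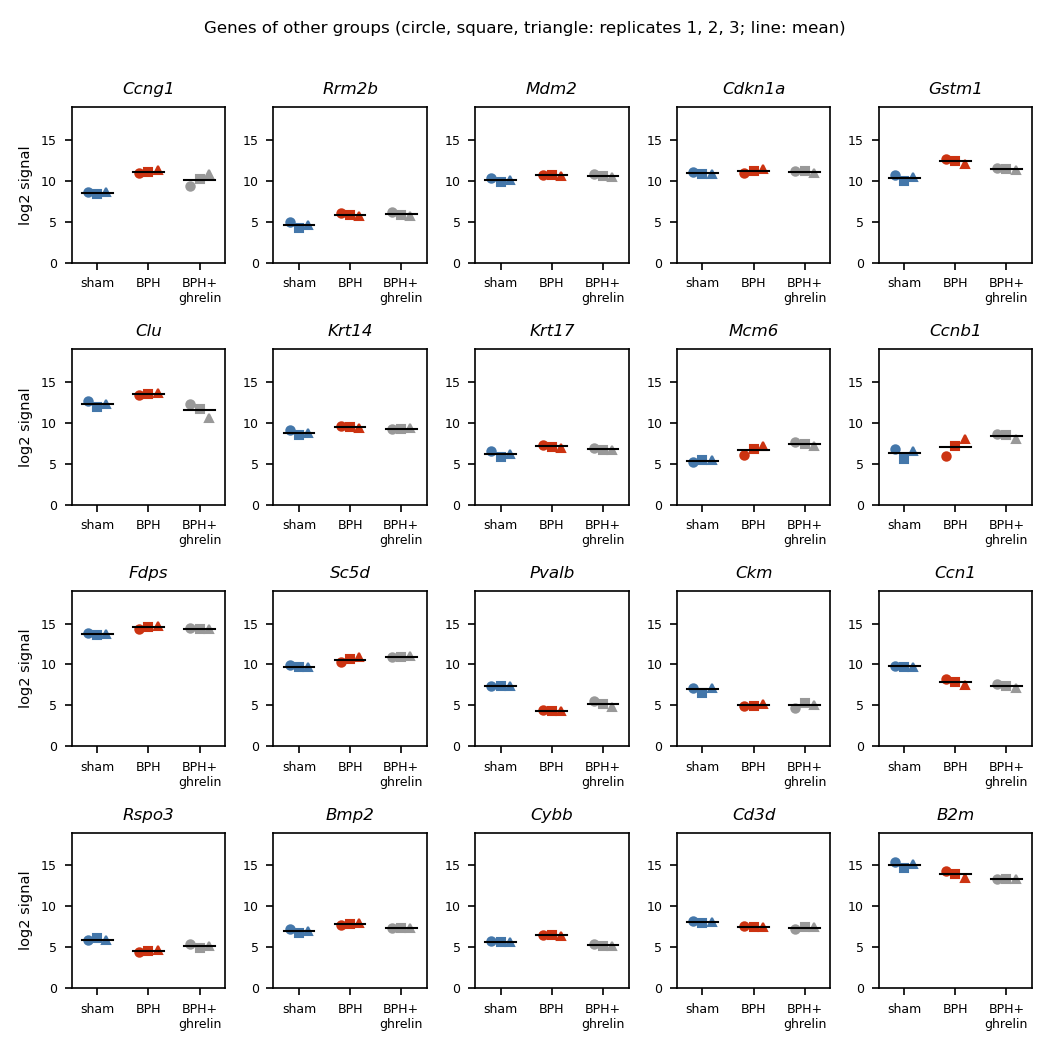
Log2 signals of 20 genes outside the secretory groups (y axis) in sham, BPH and BPH+ghrelin (x axis), with replicates as points and means as lines. Ccng1 and Gstm1 are higher and Pvalb, Ckm, Ccn1 and Rspo3 lower on all BPH arrays than on any sham array, while Ccnb1 spreads from 5.95 to 7.99 within BPH.

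Beyond the lists, the 15 genes with the largest rise and the 15 with the largest fall were taken by rule. Of the 15 that fell, Mt3, Cd52, Svs3a, Svs3b and Teddm1a are described above. Pou3f1, a POU domain transcription factor, read 11.87, 10.63 and 11.49 in sham and 6.88, 6.47 and 5.60 in BPH, a 32.2-fold fall (adjusted p = 0.0011). Mcoln2, a lysosomal cation channel, read 12.13, 11.80 and 12.00 in sham and 7.95, 7.30 and 5.90 in BPH, a 30.4-fold fall (adjusted p = 0.0084). Fbp2, the muscle form of fructose bisphosphatase, fell 21.2-fold (adjusted p = 0.0013), and Trim63, a ubiquitin ligase of muscle, 20.7-fold (adjusted p = 0.0104), though its probe was not well above background on BPH replicate 3. These 4 falls held without any 1 array. The antimicrobial defensins Defb50 and Defb2 were in the same group: Defb50 read 15.72, 15.39 and 15.49 in sham and 11.74, 11.03 and 8.86 in BPH (31.8-fold, adjusted p = 0.0175), and Defb2, not well above background on any BPH array, was at least 6.78-fold lower (adjusted p = 0.0019). Gucy2c, the guanylate cyclase receptor of guanylin peptides, was likewise not well above background on any BPH array and at least 6.64-fold lower (adjusted p = 0.00022). The remaining 3 were Itln1, a lectin that binds microbial sugars, which was well above background on 1 BPH array only (7.47, 7.50 and 7.56 in sham and 3.22, 1.78 and 0.56 in BPH, adjusted p = 0.0091), Scn1a, a sodium channel (32.4-fold, adjusted p = 0.0122, not well above background on BPH replicate 3), and Htr3a, a serotonin-gated channel (23.5-fold, adjusted p = 0.0357). Without BPH replicate 2, the calls of Defb50, Itln1, Scn1a and Htr3a were lost, with adjusted p up to 0.154, and without sham replicate 3 those of Defb50, Scn1a and Htr3a (up to 0.128). Htr3a was lost without BPH replicate 1 or BPH replicate 3 as well (up to 0.0993). The folds of genes that were dim in BPH depended on the background correction. With normexp the log2 difference was -1.70 for Scn1a, -1.13 for Trim63, -1.69 for Itln1, -0.55 for Gucy2c, -0.60 for Defb2, -2.66 for Svs3a, -1.36 for Svs3b and -2.35 for Teddm1a. For Gucy2c and Defb2 that is less than the bounds given, and both passed the filter only through their sham arrays, so their p-values carry little weight.

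The largest rises were smaller and started from dim probes. Of the 15, 10 were not well above background on any sham array, so only bounds can be given. Beside Ifit1, these were Dmkn, a secreted protein of the epidermis (at least 2.69-fold, adjusted p = 0.0178), Plppr4, a membrane protein of neurons (at least 2.28-fold, adjusted p = 0.0389, but -0.33 by its other probe), Slc43a3, a transporter of purine bases (at least 2.00-fold, adjusted p = 0.0454), Mup4l3, of the major urinary protein family (at least 1.63-fold, adjusted p = 0.0013), Soat1, which esterifies cholesterol (at least 1.54-fold, adjusted p = 0.0486), Anks4b, an epithelial scaffold protein (at least 1.43-fold, adjusted p = 0.00072), Pcdhga8, a protocadherin (at least 1.08-fold, adjusted p = 0.0145), Dio2, the deiodinase that activates thyroid hormone (at least 1.01-fold, adjusted p = 0.023), and Krt75, a keratin, for which no fold is given (adjusted p = 0.0091). Ccng1, Gstm1 and RT1-Bb were well above background on all 6 arrays. Ctdspl2, a phosphatase-like protein, read 3.30, 3.71 and 3.09 in sham and 5.36, 5.32 and 5.23 in BPH, a 3.83-fold rise (adjusted p = 0.0024), and Zfp597, a zinc finger protein, rose 3.55-fold (adjusted p = 0.0494). Both were well above background on 1 of the 3 sham arrays. The 10 genes not well above background in sham passed the filter only through their BPH arrays, so their p-values carry little weight. With normexp their log2 differences lay between 0.12 (Krt75) and 0.46 (Ifit1). They were 0.36 for Dmkn, 0.25 for Plppr4, 0.24 for Mup4l3, 0.23 for Soat1, 0.22 for Slc43a3 and Anks4b, 0.15 for Dio2 and 0.14 for Pcdhga8. Other than for Dio2 and Pcdhga8, and for Krt75, which has no bound, that is less than the bounds given. The difference with normexp was 0.47 for Ctdspl2, 0.25 for Zfp597, 0.43 for Mup4 and 2.26 for Ccng1. The call of Ctdspl2 held without any 1 array. Without BPH replicate 2, the calls of Ifit1, Dmkn, Plppr4, Slc43a3, Soat1, Pcdhga8, Dio2, RT1-Bb and Zfp597 were lost, with adjusted p up to 0.187, and all of those except Ifit1 were lost without sham replicate 3 as well (up to 0.16). Of all 107 called genes that the text or the naming rule took up, 34 kept their call whichever array was left out, some of them at background in 1 group, and 73 lost it in at least 1 of the 6 fits.

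The large falls differed in how far the BPH arrays spread. Among the 100 called genes that were at least 4-fold lower in BPH, 27 spread over 2 log2 units or more between the BPH arrays and 25 over less than 0.5, while the rest lay between these limits. BPH replicate 3 was the lowest array in 74 of the 100. Among those under 0.5 were Pvalb, Cidea and Tfpi, an inhibitor of the coagulation cascade, which read 10.53, 10.65 and 10.49 in sham and 7.73, 7.85 and 7.95 in BPH (6.54-fold, adjusted p = 0.00015). Among those at 2 or more were Mt1, Mt2A, Mt3, Svs4, Cd52 and Teddm1a. The limits of 0.5 and 2 were chosen after the values were seen.

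The BPH+ghrelin arrays came from rats with the same surgery and DHT, and are set against the same sham arrays. Pbsn read 14.46, 14.40 and 14.34 there, a difference from sham of -1.89, beside -2.65 in BPH. Mt1 read 10.58, 10.51 and 10.50, a difference of -5.42, beside -3.83. For these genes the BPH+ghrelin arrays lay below every sham array, as the BPH arrays did. Msmb read 8.41, 7.37 and 3.45, a difference of -9.70, beside -6.25. Ccng1 read 9.37, 10.24 and 10.79, a difference of 1.57, beside 2.52. In Clu the arrays diverged, with 12.32, 11.71 and 10.52 in BPH+ghrelin against 13.43, 13.54 and 13.67 in BPH. BPH+ghrelin replicates 2 and 3 shared a scan session with sham replicates 1 and 2, and within that session the difference was -1.92 for Pbsn, -5.42 for Mt1, -5.25 for Svs4 and -3.89 for Tgm4. Some genes called higher in BPH lay below sham within that session, namely Anks4b (-0.24 within the session), Soat1 (-0.99), Mme (-0.15), Cybb (-0.51), Hmox1 (-0.04) and Plau (-0.55), the urokinase plasminogen activator. Sult1b1 kept its sign at -0.25, beside -1.89. These values concern castrated rats that had also received ghrelin, and the 2 comparisons share their sham arrays.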

How the data were processed

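RNA of prostate tissue was hybridised to one-colour Agilent rat arrays, and spots were read with Agilent Feature Extraction. The authors deposited, per array, the processed signal (a background-subtracted intensity on a linear scale) with a flag for spots well above background, and a matrix of normalized log2 values, which the authors made with quantile normalization. Here the log2 processed signals were averaged over spots of a probe, leaving out control spots and outliers, and quantile normalized over the 9 arrays. Probes had to be well above background on 3 or more of the 6 BPH and sham arrays to be kept (21928 of 30356), and the brightest of them stood for each gene. Probe accessions were matched to RefSeq transcripts, which gave 59.3% of probes a symbol. An accession without a symbol counts as a gene of its own among the 19552. BPH was compared with sham by limma (version 3.58.1, R version 4.3.3) over all 9 arrays, two-sided, with Benjamini-Hochberg adjustment. The scripts were tested on simulated data. The number of arrays limits the precision, and no spot was saturated.

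A probe not well above background in one group has only a bound, given as at least N-fold: the mean of the brighter group against the higher, per array, of the lowest signal well above background and the probe's own. Gene lists came from general knowledge and are described by counts and medians, with no set test. The genes named are the 15 largest called differences in each direction without overlap between groups, the first 2 members of each list and up to 5 members without overlap, by size. Called list members outside this rule, Andpro, Hoxb13, Igfbp3, Klk1, Mdm2, Myh2, Pcna, Sbp, Slc30a1, Slc39a1 and Wfdc3, and the genes of the closing observations, were chosen after their values were seen. The members and lists were chosen with earlier results of these data known. Alternatives were 75th percentile scaling, normexp background (on the median spot signal, in place of the mean signal planned), other filters, the mean of probes, the deposited matrix, a fit of the 6 arrays alone, limma with trend and robust options, terms for replicate number and scan session, and leaving out each array. Results for some genes are not reported here.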

Additional observations from a re-analysis of the deposited data

How the results depend on the processing

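Against 849 calls (422 higher, 427 lower), the test called 533 genes (230 higher) with no filter on dim probes, 181 (39 higher, 142 lower) with the 6 arrays alone, 2 (1 and 1) with scan session as a fixed block and 7084 (3802 and 3282) with it as a random block, for which the estimated correlation was -0.212. With 1 array left out, calls ranged from 119 to 3069, higher calls from 20 to 1494 and lower calls from 99 to 1575. The replicate numbers did not pair the samples (correlations of same-numbered deviations -0.022, 0.002 and -0.016), and with the replicate block the test called 242 genes (53 higher, 189 lower). Genes at least 2-fold higher (690) numbered 368 with 75th percentile scaling, 76 with normexp, 227 with the filter on all 6 arrays, 1171 with the fixed scan block, and 370 to 1346 with 1 array left out. Genes at least 2-fold lower (906) numbered 253 with normexp, 1418 with no filter and 640 to 1369 with 1 array left out. The shift of the median of all genes with 75th percentile scaling was to -0.087.

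List medians that moved by more than the spread between arrays were as follows. With 75th percentile scaling the median was -0.516 for ventral secretions, -0.457 for epididymis, 0.075 for androgen targets, 0.106 for castration-induced genes, 0.175 for basal epithelium, -0.286 for macrophages, -0.058 for endothelium, -0.089 for fatty acid oxidation, -0.21 for the respiratory chain, -0.532 for ribosomal proteins and -0.013 for steroid genes. With normexp it was -0.446 for seminal vesicle, -0.092 for epididymis, 0.105 for castration-induced genes, 0.226 for basal epithelium, 0.206 for DNA replication, 0.067 for nerve and 0.046 for ribosomal proteins. With no filter it was -0.93 for seminal vesicle, -0.082 for epididymis, 0.20 for basal epithelium, -0.039 for fatty acid oxidation and -0.009 for steroid genes, and with the filter on all 6 arrays -1.886 for seminal vesicle, -0.548 for epididymis, -0.244 for endothelium and -0.06 for fatty acid oxidation. With the mean of probes it was 0.012 for fatty acid oxidation and 0.024 for zinc genes. With the fixed scan block it was 0.125 for ventral secretions, 0.014 for epididymis, 0.088 for androgen targets, 0.138 for castration-induced genes, 0.125 for basal epithelium, 0.76 for matrix, 0.003 for DNA replication, 0.041 for macrophages, 0.32 for complement, 2.525 for adipocytes and -0.165 for fatty acid oxidation, and with the random scan block 0.416 for basal epithelium, 0.077 for complement, -0.124 for endothelium and 0.081 for nerve. With 1 array left out, medians ranged from -0.389 to -0.036 for epididymis, 0.099 to 0.523 for castration-induced genes, 0.176 to 0.438 for basal epithelium, 0.206 to 0.581 for DNA replication, -0.234 to 0.022 for macrophages, 0.124 to 0.30 for complement, -0.02 to 0.18 for endothelium, 0.022 to 0.459 for nerve, -0.106 to 0.061 for fatty acid oxidation, 0.027 to 0.115 for the respiratory chain and 0.073 to 0.175 for steroid genes. For other lists, within that spread, it was 0.019 to 0.068 for ventral secretions, 0.058 to 0.262 for p53 targets, -0.289 to -0.094 for lymphocytes, 0.018 to 0.422 for secretory pathway genes, -0.133 to -0.036 for zinc genes, -0.056 to 0.144 for conjugating enzymes, -0.047 to 0.102 for growth factors, -0.095 to 0.28 for Wnt, hedgehog and Notch genes and -0.348 to -0.103 for immediate early genes. Medians of other lists also changed sign, to -0.036 for mitosis with the fixed scan block, to -0.011 for p53 targets and -0.029 for secretory pathway genes with 75th percentile scaling, and to 0.158 for interferon and 0.021 for antigen presentation genes without BPH replicate 3. Among single genes, RT1-Bb (-0.344) and Cyp4a8 (0.413) turned direction with the mean of probes. The cause of these differences was not tested.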

Other observations

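Genes outside the lists, chosen after their values were seen, fell in several further roles. Car2, a carbonic anhydrase, read 14.85, 14.25 and 14.59 in sham and 11.28, 10.64 and 9.28 in BPH (difference -4.16, adjusted p by limma with Benjamini-Hochberg adjustment 0.00597). Stat5a, a transcription factor activated by cytokines and prolactin, read 13.49, 12.58 and 13.15 in sham and 10.86, 10.42 and 9.81 in BPH (difference -2.71, adjusted p = 0.00451). All BPH arrays lay below all sham arrays in both genes. Agr2, a disulfide isomerase of secretory epithelium, differed by -2.35 (adjusted p = 0.0195), and Slc40a1, the iron exporter ferroportin, by -1.42 (adjusted p = 0.00191).

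The mast cell proteases Mcpt8, Mcpt9 and Mcpt10 fell by 1.73, 1.48 and 1.33 on the log2 scale (adjusted p = 0.00367, 0.00702 and 0.0102). The list that holds mast cell genes had 0 called lower and 2 called higher, and its mast cell genes Cpa3 and Cma1 differed by -0.07 and -0.39 (adjusted p = 0.896 and 0.426). Mcpt8 read 8.36, 9.05 and 8.59 in sham and 7.07, 6.80 and 6.95 in BPH. The chemokines Cxcl1 and Ccl19 fell by 1.73 and 1.84 (adjusted p = 0.00109 and 0.0206). Higher in BPH were Lgals7, a galectin of stratified epithelium (1.65, adjusted p = 0.00599), Plau, the urokinase plasminogen activator (1.48, adjusted p = 0.0346), Mmp12, the macrophage elastase (1.40, adjusted p = 0.0142), the odorant binding lipocalin Obp3 (1.31, adjusted p = 0.00365) and Insig2, an inhibitor of sterol synthesis (0.91, adjusted p = 0.0069). Calls were lost without BPH replicate 2 for Agr2, Ccl19, Mcpt10, Mmp12, Plau and Insig2 (adjusted p up to 0.151), without sham replicate 3 for Agr2, Ccl19, Mmp12 and Plau (up to 0.116), without BPH replicate 3 for Agr2 and Ccl19 (up to 0.0694), and for Plau also without BPH replicate 1 (0.0718) or sham replicate 2 (0.0518).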
